A study of Homo sapiens with 6 samples.

Results

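The proteasome is the barrel-shaped protease that degrades ubiquitin-tagged proteins, and its subunits are encoded by the PSM genes. Genes whose symbol was PSM, a letter from A to G and a number were taken from the deposited expression table. 46 of the 14168 listed genes met this rule, and all 46 were among the 13050 genes with at least 0.5 CPM (read counts scaled by the authors to a common library size) in at least 3 of the 6 libraries. PSMA8 and PSMB11 were not analysed here. The RNA came from HaCaT cells, an immortalised human keratinocyte line, and both groups were this same line. The siAgrin group (3 libraries) received an siRNA against Agrin, a heparan sulphate proteoglycan of the extracellular matrix, and the siControl group (3 libraries) received a control siRNA. The comparison asks which transcripts differ when keratinocytes have less Agrin. The labels do not say that the replicates were separate cultures, so p-values measure the spread between these libraries only. The Agrin siRNA used and the time of harvest were not given in the sources used here, and all results come from a single line.

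The 20S core is a stack of alpha rings, which gate the chamber, and beta rings, which hold the protease sites. PSMB5, PSMB6 and PSMB7 carry these sites in the constitutive core, and interferon induces PSMB8, PSMB9 and PSMB10 in their place, which gives the immunoproteasome. A 19S cap of ATPases, base and lid proteins recognises, unfolds and de-ubiquitinates the substrate, whereas the interferon-inducible PA28 cap of PSME1 and PSME2 opens the core without ubiquitin recognition. In skin, as in other tissues, the immunoproteasome is best known for cutting peptides that are shown on MHC class I.

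The CPM step of 1 read implied library sizes of 45175855 to 46566571, and the genes listed held 40958553 to 43312708 reads per library. The least abundant member, PSMG4, still had 663 to 799 reads per library. AGRN itself had 403, 412 and 387 CPM in siAgrin cells, against 797, 833 and 833 CPM in siControl cells. It was lower by a log2 fold change of -1.03 (SE 0.047, limma with Benjamini-Hochberg adjustment, adjusted p = 2.6e-05), so the labels fit the knockdown. The 8 keratinocyte markers summed to 11657 to 13251 CPM in siAgrin libraries and 10175 to 10372 CPM in siControl libraries. No leukocyte marker passed the filter, and the only one listed, CD14, was at most 0.108 CPM in siAgrin cells and 0.301 CPM in siControl cells.

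Promoter windows are shown for the 5 interferon-inducible genes and for PSMB3 and PSMD14 as examples of the constitutive genes that rose, because most of the interferon-inducible genes held letters that few of the constitutive genes had. Each window holds 300 bases, 250 before and 50 from the annotated start (RefSeq, GRCh38.p14), and 40 of the 46 members had at least 1 (8 had more than 1). PSMA7, PSMB1, PSMB6, PSMB7, PSMD4 and PSMG3 had none. The windows are chr16:67936801-67937100 (minus strand) for PSMB10, chr14:24146561-24146860 (minus) for PSME2, chr14:24135944-24136243 (plus) for PSME1, chr6:32843998-32844297 (minus) for PSMB8, chr6:32853942-32854241 (plus) for PSMB9, chr17:38752491-38752790 (plus) for PSMB3 and chr2:161308175-161308474 (plus) for PSMD14. PSMB8 has a second window, chr6:32844630-32844929 (minus), with no match to any motif searched. Capitals mark matches, on either strand, to any of 4 motifs.
PSMB10: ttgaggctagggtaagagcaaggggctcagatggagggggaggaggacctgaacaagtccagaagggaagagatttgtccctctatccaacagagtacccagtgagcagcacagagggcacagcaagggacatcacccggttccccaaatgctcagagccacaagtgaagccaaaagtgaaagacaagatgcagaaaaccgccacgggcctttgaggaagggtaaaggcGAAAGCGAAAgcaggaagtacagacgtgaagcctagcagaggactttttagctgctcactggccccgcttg
PSME2: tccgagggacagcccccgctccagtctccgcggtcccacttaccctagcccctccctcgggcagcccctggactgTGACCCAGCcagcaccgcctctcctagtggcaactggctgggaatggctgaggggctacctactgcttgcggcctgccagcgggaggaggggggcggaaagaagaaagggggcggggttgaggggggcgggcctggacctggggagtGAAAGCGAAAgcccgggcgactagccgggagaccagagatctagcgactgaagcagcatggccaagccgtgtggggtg
PSME1: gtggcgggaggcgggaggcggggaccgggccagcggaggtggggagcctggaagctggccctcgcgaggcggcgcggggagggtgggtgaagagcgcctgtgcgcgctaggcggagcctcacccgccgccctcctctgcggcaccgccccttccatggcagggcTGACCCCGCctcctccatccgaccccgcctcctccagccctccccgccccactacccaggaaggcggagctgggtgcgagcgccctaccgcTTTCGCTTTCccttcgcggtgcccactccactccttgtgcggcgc
PSMB8: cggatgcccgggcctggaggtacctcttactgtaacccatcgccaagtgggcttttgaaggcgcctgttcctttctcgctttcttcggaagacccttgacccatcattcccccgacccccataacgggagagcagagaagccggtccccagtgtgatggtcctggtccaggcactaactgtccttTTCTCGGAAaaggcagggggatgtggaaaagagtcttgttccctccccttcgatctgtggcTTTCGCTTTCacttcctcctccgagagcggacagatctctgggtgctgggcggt
PSMB9: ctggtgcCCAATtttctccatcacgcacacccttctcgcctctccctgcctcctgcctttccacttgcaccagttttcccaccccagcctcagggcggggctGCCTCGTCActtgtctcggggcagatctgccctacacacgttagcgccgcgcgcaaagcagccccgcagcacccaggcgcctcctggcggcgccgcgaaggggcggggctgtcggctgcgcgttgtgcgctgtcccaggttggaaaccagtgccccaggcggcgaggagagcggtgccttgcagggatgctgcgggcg
PSMB3: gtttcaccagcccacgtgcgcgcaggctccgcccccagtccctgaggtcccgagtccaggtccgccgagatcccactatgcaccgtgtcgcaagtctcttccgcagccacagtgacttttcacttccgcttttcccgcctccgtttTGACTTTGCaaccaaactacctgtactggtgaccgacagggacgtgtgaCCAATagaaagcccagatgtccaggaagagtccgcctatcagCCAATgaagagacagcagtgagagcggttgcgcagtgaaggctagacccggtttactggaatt
PSMD14: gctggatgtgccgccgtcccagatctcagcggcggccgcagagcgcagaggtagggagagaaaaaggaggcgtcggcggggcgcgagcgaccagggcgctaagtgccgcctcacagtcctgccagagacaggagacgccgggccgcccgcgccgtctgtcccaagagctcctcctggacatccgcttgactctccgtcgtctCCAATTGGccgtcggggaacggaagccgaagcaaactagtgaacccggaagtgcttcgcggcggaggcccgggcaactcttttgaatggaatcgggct

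The core of the interferon-stimulated response element, where interferon-activated factors bind, was searched as GAAA, any 2 bases and GAAA. It was found in 4 of the 5 interferon-inducible genes (PSMB8, PSMB10, PSME1 and PSME2) and in 2 of the 26 constitutive subunit genes with a window (PSMA4 and PSMB4), against 4.38% of all 27305 genes with a window, a gene counting once if any of its windows held a match. In PSMB10 and PSME2 the match began 21 and 28 bases before the start site, and in PSME1 it began 5 bases after it. PSMB9 had no match in its window. Outside these 2 sets PSMG4, a 20S assembly chaperone, held a match that began 33 bases before the start site. PSMG4 was not called (log2 fold change -0.05, limma adjusted p = 0.57). The CCAAT box, which binds the factor NF-Y, was in 15 of the 26 constitutive genes and 1 of the 5 inducible genes (PSMB9), against 39.7% of all genes. PSMD14 had overlapping CCAAT matches on opposite strands. The antioxidant response element core, TGACNNNGC, which binds NRF1 and NRF2, was in 7 of the 26 constitutive and 3 of the 5 inducible genes, against 16.1% of all genes. The gamma-activated site core, TTCNNNGAA, was in 5 of the 26 and 1 of the 5 (PSMB8), against 9.38% of all genes. These matches are letters in a window and were not measured as binding.

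Across the 46 genes the constitutive subunits were mostly higher in siAgrin cells and the interferon-inducible ones were lower. At an adjusted p below 0.01 (limma on log2 of CPM + 0.5, Benjamini-Hochberg over all genes), 9 of the 46 members rose, beside 9.14% of all genes tested, and 2 fell, beside 9.07% of all genes. Every siAgrin library lay above every siControl library for 26 members, against 25.0% of all genes, and below for 5 members, against 24.9%. The median log2 fold change of the members was 0.19, against -0.0019 over all genes, and 37 of the 46 were positive. The 9 that rose were all among the 31 constitutive 20S and 19S subunits. The number of risen genes depended on the libraries, and so did the share called over all genes tested. It was 26 without siAgrin 2 (12.9% of all genes), 0 by limma without siAgrin 3 (2.13% of all genes; 23 members at unadjusted p below 0.05), and 5, 1 and 1 without siControl 1, 2 and 3 (5.91, 2.53 and 2.82% of all genes). Those that fell numbered 5 without siAgrin 2 (13% of all genes) and 0 without siAgrin 3, siControl 2 or siControl 3 (2.39, 2.58 and 2.87% of all genes; 4, 4 and 5 members at unadjusted p below 0.05).

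**Figure D1:**
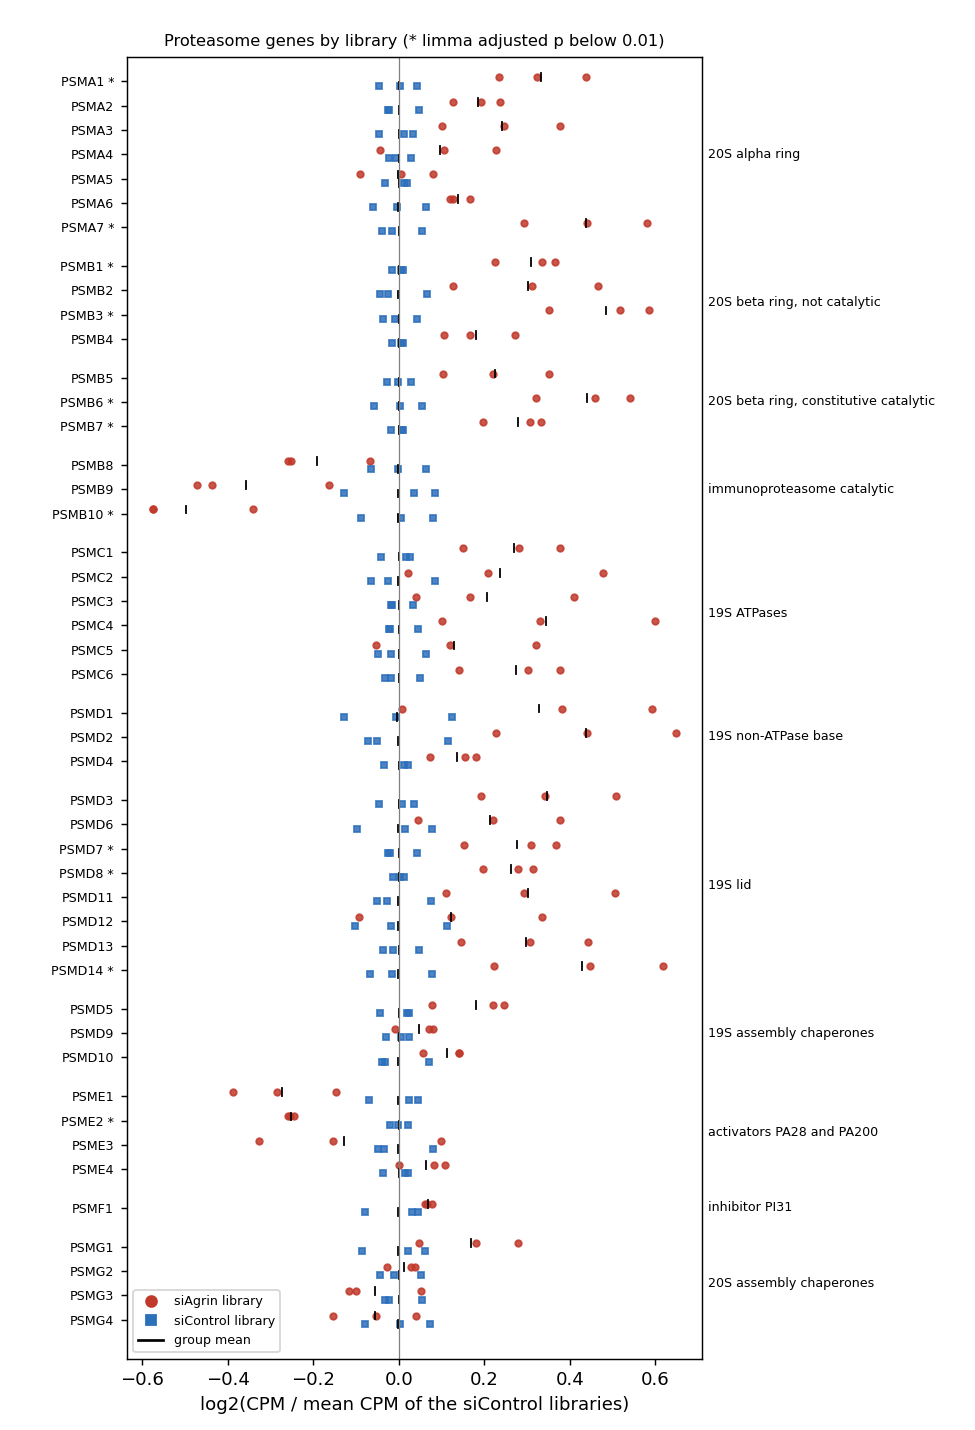
Each row is a proteasome gene and each point is a library, placed by log2 of its CPM over the mean of the siControl libraries (circles siAgrin, squares siControl, black ticks group means). Most constitutive rows lie to the right of 0, and PSMB8, PSMB9, PSMB10, PSME1 and PSME2 lie to the left.

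**Figure D2:**
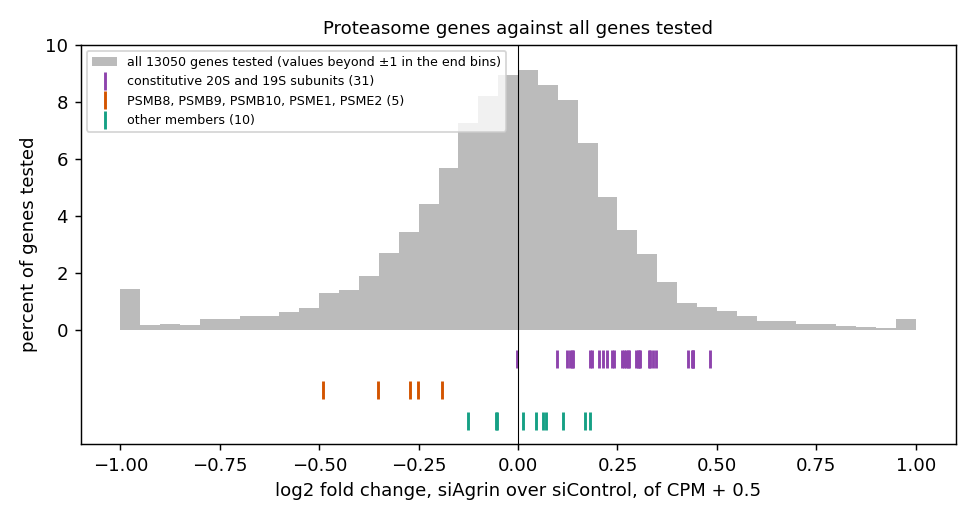
Grey bars give the percent of the 13050 genes tested at each log2 fold change of siAgrin over siControl, and coloured ticks below them are the 46 members. The 31 constitutive subunits have a median of 0.27, and the 5 interferon-inducible genes run from -0.49 to -0.19.

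Among the catalytic subunits the constitutive forms were higher and the immune forms lower in every siAgrin library than in every siControl library. Of all genes tested, 25% were likewise wholly higher and 24.9% wholly lower. PSMB6, the caspase-like site, had 153, 131 and 145 CPM in siAgrin cells, against 109, 101 and 105 CPM in siControl cells. PSMB7, the trypsin-like site, had 259, 236 and 255 CPM in siAgrin cells, against 208, 203 and 207 CPM in siControl cells. Both rose, with log2 fold changes of 0.44 (SE 0.062, limma adjusted p = 0.0017) for PSMB6 and 0.28 (SE 0.047, limma adjusted p = 0.0034) for PSMB7, and neither gene had overlapping groups. PSMB5, the chymotrypsin-like site, had 101, 85.03 and 92.2 CPM in siAgrin cells, against 80.8, 79.1 and 77.7 CPM in siControl cells. Its groups did not overlap, but its log2 fold change of 0.22 did not pass the threshold (limma adjusted p = 0.026). Without siControl 2, siControl 3 or siAgrin 3 the calls of PSMB6 and PSMB7 were lost, that of PSMB7 also without siControl 1 (limma adjusted p up to 0.014 for PSMB6 and 0.026 for PSMB7).

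PSMB10, which replaces PSMB7, had 51.5, 60.5 and 51.5 CPM in siAgrin cells, against 72.1, 81.0 and 76.9 CPM in siControl cells. It fell by 0.49 on the log2 scale (SE 0.074, limma adjusted p = 0.0021) to 71.1% of the siControl mean, and its highest siAgrin library stood well below its lowest siControl library. The call was lost without siControl 2, siControl 3 or siAgrin 3 (limma adjusted p up to 0.016). PSMB9, which replaces PSMB6, had 48.3, 59.8 and 49.5 CPM in siAgrin cells, against 61.3, 71.0 and 68.7 CPM in siControl cells. PSMB8, which replaces PSMB5, had 104, 118.98 and 105 CPM in siAgrin cells, against 119.16, 130 and 125 CPM in siControl cells. For both genes siAgrin 2 came close to siControl 1, and their log2 fold changes of -0.35 for PSMB9 and -0.19 for PSMB8 missed the threshold (limma adjusted p = 0.018 and 0.043). PSMB8 and PSMB9 lie side by side on chromosome 6 and overlap on opposite strands, and the strand setting of the counting was not given in the sources used here.

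**Figure D3:**
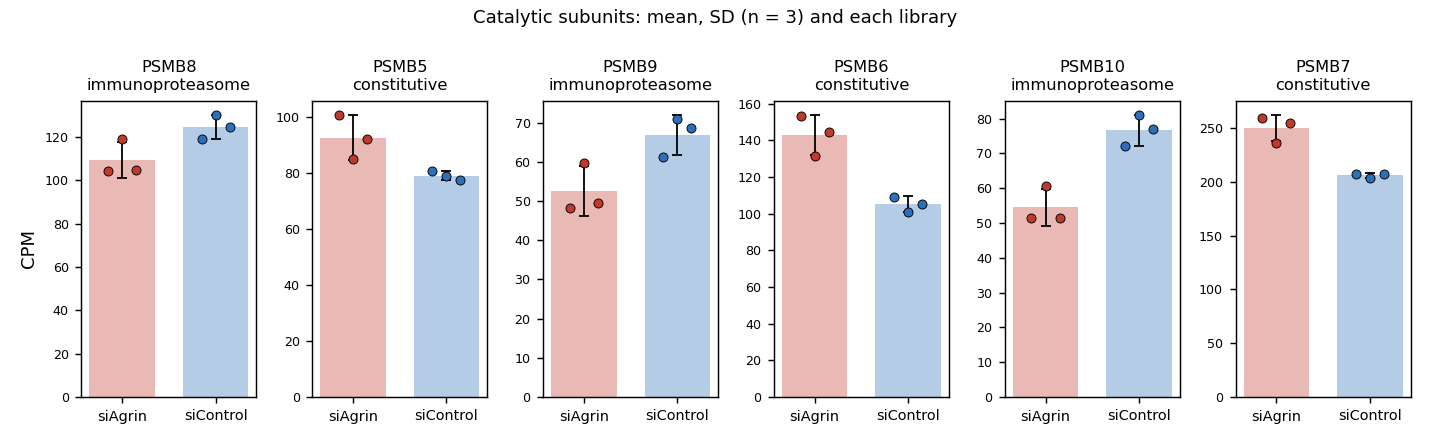
Bars are mean CPM, error bars the SD over 3 libraries and points the libraries, siAgrin left of siControl in each panel. Each immune form stands beside the constitutive form it replaces, and the immune bars are lower and the constitutive bars higher in siAgrin cells.

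Within each library the immune form was divided by the constitutive form it replaces, which removes library size. PSMB9 over PSMB6 was 0.316, 0.455 and 0.342 in siAgrin libraries, against 0.561, 0.704 and 0.652 in siControl libraries. PSMB10 over PSMB7 was 0.198, 0.257 and 0.202 in siAgrin libraries, against 0.347, 0.398 and 0.371 in siControl libraries. PSMB8 over PSMB5 was 1.03, 1.40 and 1.14 in siAgrin libraries, against 1.47, 1.65 and 1.603 in siControl libraries. No ratio overlapped between groups, which follows from the single genes, as none of them overlapped. The log2 differences, siAgrin minus siControl, were -0.79, -0.77 and -0.41 in that order of pairs. For each of the 3 ratios the exact permutation test gave p = 0.1 (two-sided, Benjamini-Hochberg adjusted p = 0.1), which is the smallest that 3 against 3 allows. This p follows from the same separation and adds no evidence beyond the single genes. Counted per kilobase of canonical transcript, the 3 immune genes made up 26.1, 32.0 and 27.1% of the 6 catalytic transcripts in siAgrin libraries, against 36.3, 39.9 and 38.4% in siControl libraries.

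**Figure D4:**
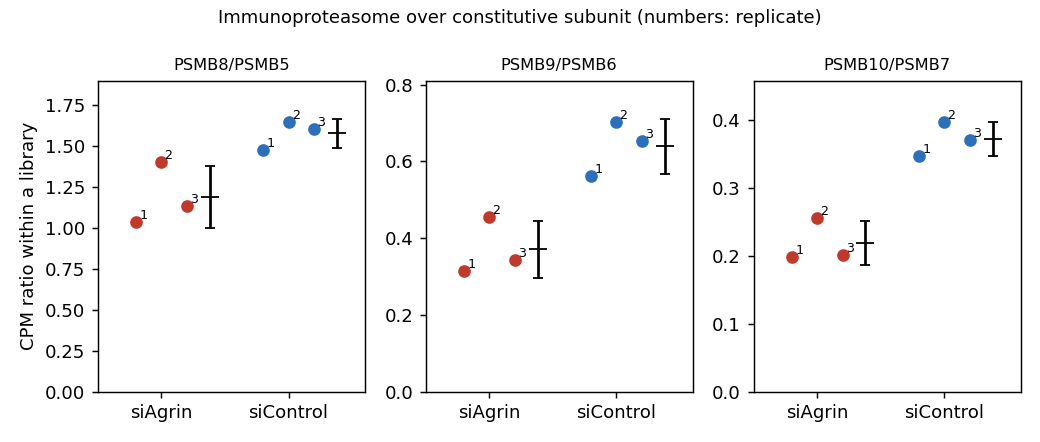
Each point is the CPM ratio within a library, numbered by replicate, with the mean and SD at its right (n = 3), siAgrin left of siControl. In all 3 panels the siAgrin points lie below the siControl points, and siAgrin 2 is the nearest to them.

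Both PA28 genes were lower in every siAgrin library than in every siControl library, as were 24.9% of all genes tested. PSME2, its beta subunit, had 142, 143 and 142 CPM in siAgrin cells, against 168, 170 and 173 CPM in siControl cells. It fell by 0.25 on the log2 scale (SE 0.036, limma adjusted p = 0.0017), with little spread in either group, and 6 pseudogenes of PSME2 are annotated with which reads could be shared. This call too was lost without siControl 2, siControl 3 or siAgrin 3 (limma adjusted p up to 0.016). PSME1, its alpha subunit, had 227, 268 and 244 CPM in siAgrin cells, against 283, 307 and 302 CPM in siControl cells, without overlap (log2 fold change -0.27, limma adjusted p = 0.015). Of the activators that are not in this cap, PSME3, the nuclear PA28 gamma, had a log2 fold change of -0.13, and PSME4, the PA200 cap, one of 0.06, and neither passed. PSME3 was at -0.027 without siAgrin 2. PSMF1, the inhibitor PI31, had 95.2, 94.1 and 94.4 CPM in siAgrin cells, against 85.4, 92.1 and 93.0 CPM in siControl cells, with no call (log2 fold change 0.07, limma adjusted p = 0.25).

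In the rest of the 20S core 4 of 11 genes rose, beside 9.14% of all genes tested. PSMB3, a structural beta subunit, had the highest positive log2 fold change of the members, with 265, 225 and 253 CPM in siAgrin cells, against 182, 176 and 172 CPM in siControl cells (0.48, SE 0.063, limma adjusted p = 0.0012). PSMA7, an alpha ring subunit, had 269, 220 and 244 CPM in siAgrin cells, against 187, 178 and 175 CPM in siControl cells (0.44, SE 0.071, limma adjusted p = 0.0031). The groups did not overlap for either gene. PSMA1 (log2 fold change 0.33) and PSMB1 (0.31) rose as well, with limma adjusted p of 0.0038 and 0.0022. The call of PSMB3 was lost only without siAgrin 3 (limma adjusted p = 0.011), and those of the other 3 also without siControl 2 or siControl 3 (up to 0.025 for PSMA1). With no filter on low values PSMA1 and PSMA7 just missed the threshold (limma adjusted p = 0.0103 and 0.0106). PSMB4 was lowest of the structural beta genes at 0.18 and did not pass. PSMA5 was lowest of the alpha ring at -0.0019. It had 140, 124 and 133 CPM in siAgrin cells, against 133, 129 and 134 CPM in siControl cells. Its groups overlapped, as did those of PSMA4 (log2 fold change 0.097, limma adjusted p = 0.28).

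All 17 genes of the 19S cap had positive log2 fold changes. Of the 8 lid genes 3 passed as higher, beside 9.14% of all genes tested. PSMD14, the lid enzyme that strips ubiquitin from substrates, had 159, 121 and 141 CPM in siAgrin cells, against 109, 99.0 and 103 CPM in siControl cells (0.43, SE 0.093, limma adjusted p = 0.0097). The lid genes PSMD7 (0.28) and PSMD8 (0.26) rose with limma adjusted p of 0.0093 and 0.0033, and PSMD12 had the lowest value of the lid at 0.12. Each of these 3 calls was lost without siAgrin 3 and without each siControl library in turn, and PSMD7 lost its call without siAgrin 1 as well (limma adjusted p up to 0.050 for PSMD7). With no filter PSMD14 and PSMD7 missed it too (limma adjusted p = 0.027 and 0.020), as they did without the trend in limma (0.019 each) and, for PSMD14, with a mean of at least 5 CPM required (0.0105). PSMD2, a scaffold of the base, had 434, 324 and 376 CPM in siAgrin cells, against 300, 263 and 267 CPM in siControl cells. Its groups did not overlap, yet the spread within siAgrin was wide and the call was missed (0.44, SE 0.10, limma adjusted p = 0.013). The 6 ATPases that unfold the substrate ran from 0.13 for PSMC5 to 0.34 for PSMC4 (0.035 and 0.21 without siAgrin 1, where PSMD12 was at 0.017), and none passed with limma (4 at unadjusted p below 0.05; 0 with edgeR and 3 with DESeq2). None of the 3 base genes passed with limma either (3 at unadjusted p below 0.05; 0 with edgeR and 1 with DESeq2).

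None of the 7 PSM-named assembly chaperones, which build the particle and leave it, was called. Of the 3 chaperones of the 19S base, PSMD5 was highest at 0.18, without overlap between groups (limma adjusted p = 0.032), and PSMD9 lowest at 0.05. Of the 4 chaperones of the 20S rings, PSMG1 was highest at 0.17 and PSMG3 and PSMG4 were both at -0.05. The limma test gave none of them an adjusted p below 0.01 (2 and 1 at unadjusted p below 0.05 in the 19S and 20S sets), and edgeR and DESeq2 called 0 each.

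The size of the difference varied between siAgrin libraries in the same order for both classes, with opposite signs. The median log2 difference from the siControl mean of the 31 constitutive subunits was 0.37 in siAgrin 1, 0.13 in siAgrin 2 and 0.30 in siAgrin 3, and that of the 5 inducible genes was -0.39, -0.16 and -0.28. The library with the most constitutive subunit RNA therefore had the least inducible subunit RNA, and siAgrin 2 was nearest to siControl in both. The order siAgrin 1, 3, 2 from high to low held for 29 of the 31 constitutive genes and 0 of the 5 inducible genes, against 4089 of the 13050 genes tested. An opposed difference was also present among the siControl libraries. SiControl 1 was the highest of its group for 25 of the 31 constitutive genes and 0 of the 5 inducible genes, against 5254 of the 13050 genes tested. Medians in siControl 1, 2 and 3 were 0.043, -0.022 and -0.017 (constitutive) and -0.069, 0.064 and 0.022 (inducible). AGRN, at 403, 412 and 387 CPM in siAgrin 1, 2 and 3, stood in another order. The cause was not tested. Collagen markers of fibroblasts also differed by library: COL1A2 had 0.266, 16.2 and 5.99 CPM (highest in siAgrin 2) in siAgrin libraries, against 0.129, 2.66 and 0.0644 CPM in siControl libraries. None of the 5 fibroblast markers tested passed with limma (0 at unadjusted p below 0.05, 0 with edgeR and 0 with DESeq2). The fibroblast list summed to 9.45 to 45.7 CPM in siAgrin libraries and 12.2 to 19.5 CPM in siControl libraries, with PDGFRB at 0 in siControl 1 and 3, and its part in the library differences was not tested.

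**Figure D5:**
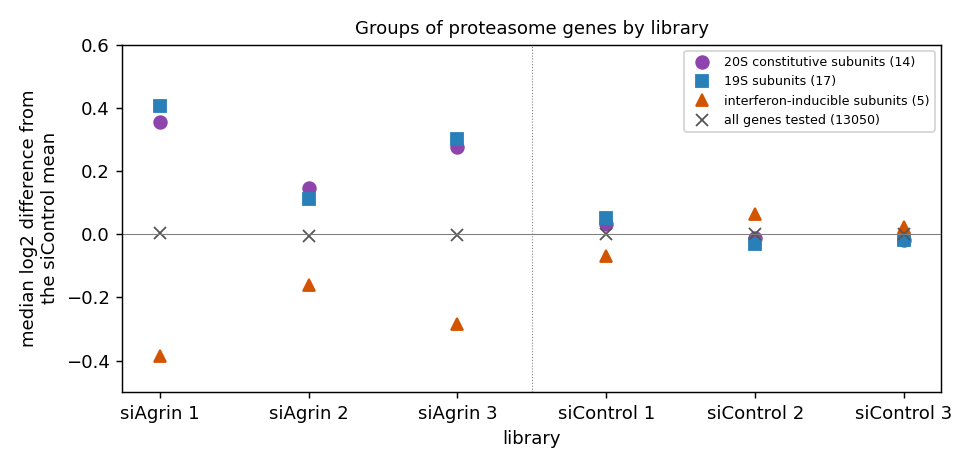
Points are the median log2 difference from the siControl mean in each library for 4 sets of genes, siAgrin libraries left of siControl libraries. The 20S and 19S sets are highest in siAgrin 1 and lowest of the siAgrin libraries in siAgrin 2, the inducible set runs the other way, and all genes tested stay near 0.

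Genes outside the naming rule that work with the proteasome were taken from lists of known partners. Of 11 partners 3 rose and 0 fell with limma, beside 9.14% and 9.07% of all genes tested. At unadjusted p below 0.05, 1 was lower with limma, and edgeR and DESeq2 called 0 lower. SEM1, a small lid subunit, had 103, 99.99 and 103 CPM in siAgrin cells, against 86.1, 83.8 and 83.9 CPM in siControl cells (0.27, limma adjusted p = 0.0016). PAAF1, a 19S assembly chaperone (0.31, limma adjusted p = 0.0098), and AKIRIN2, which brings proteasomes into the nucleus (0.19, limma adjusted p = 0.0075), rose as well. Without siControl 2, siControl 3 or siAgrin 3 all of these calls were lost, and PAAF1 and AKIRIN2 also lost theirs without siControl 1 and, for PAAF1, siAgrin 2 or, for AKIRIN2, siAgrin 1 (limma adjusted p up to 0.015 for SEM1, 0.052 for PAAF1 and 0.039 for AKIRIN2). PAAF1 also lost its call in 6 other settings (limma adjusted p 0.0101 to 0.0206), among them both other scalings and no filter, and AKIRIN2 lost its call without the trend in limma (0.0145). POMP, the maturation factor of the 20S core, had 139, 118 and 129 CPM in siAgrin cells, against 114, 110 and 107 CPM in siControl cells, and was not called (0.22, limma adjusted p = 0.030).

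Of the regulators of proteasome genes none of the 11 tested passed with limma (0 higher and 4 lower at unadjusted p below 0.05; 0 with edgeR; 1 lower with DESeq2). NFE2L1, which encodes NRF1, the factor that restores proteasome genes after inhibition, had 399, 454 and 434 CPM in siAgrin cells, against 383, 403 and 396 CPM in siControl cells (0.12, limma adjusted p = 0.13). Its groups overlapped. In the ubiquitin list of 15 genes, UBA1, the main ubiquitin-activating enzyme (0.35), rose, while RPS27A, a fusion of ubiquitin and a ribosomal protein (-0.30), fell. The calls of UBA1 and RPS27A were lost without siControl 2 or siAgrin 3, and that of RPS27A also without siControl 3 or siAgrin 1 (limma adjusted p up to 0.012 for UBA1 and 0.046 for RPS27A). RPS27A also missed the threshold with no filter (limma adjusted p = 0.018) and without the trend in limma (0.0116).

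The class I pathway, which uses the peptides, had 3 lower and 1 higher gene of 12, beside 9.07% and 9.14% of all genes tested. TAP2, a subunit of the peptide transporter, had 126, 117 and 122 CPM in siAgrin cells, against 156, 158 and 157 CPM in siControl cells (-0.37, limma adjusted p = 0.00070). The peptide-trimming enzymes ERAP1 (-0.27) and ERAP2 (-0.36) fell as well, whereas NLRC5, the class I transactivator (0.30), rose. TAP2 passed whichever library was left out, ERAP1 and ERAP2 lost their calls without siControl 2, siControl 3 or siAgrin 3 and ERAP2 also without siControl 1, and NLRC5 lost its call in each of the 6 omissions (limma adjusted p up to 0.017 for ERAP1, 0.034 for ERAP2 and 0.043 for NLRC5). With no filter ERAP2 and NLRC5 missed the threshold as well (limma adjusted p = 0.0127 and 0.0147). IRF1, an activator of PSMB9 and TAP1, had 129, 188 and 150 CPM in siAgrin cells, against 193, 222 and 216 CPM in siControl cells (-0.45, limma adjusted p = 0.026). Its groups did not overlap, and within each group its libraries stood in the same order as those of PSMB9. TAP1, the divergent neighbour of PSMB9, had a log2 fold change of -0.16 and did not pass the threshold (limma adjusted p = 0.27; -0.066 without siAgrin 1).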

How the data were processed

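HaCaT polyA RNA from 3 siAgrin and 3 siControl libraries was sequenced as single 75 bp reads. The authors aligned with STAR 2.6.1d to hg38, counted with HTSeq on GENCODE 29 and deposited CPM values, which are not scaled for gene length. The strand setting was not given in the sources used here. Whole reads were recovered from the CPM steps for 100% of values (tolerance 0.01 read). Log2(CPM + 0.5) of genes with at least 0.5 CPM in 3 libraries was tested with limma 3.58.1 (trend, Benjamini-Hochberg, adjusted p below 0.01), and fold changes are on that scale. The count tests were edgeR 4.0.16 and DESeq2 1.42.0 on the recovered reads. Of the 46 members edgeR called 10 higher and 2 lower (9.23 and 8.86% of all genes tested). DESeq2 called 21 higher and 4 lower (13 and 12.7% of all genes tested). Ratios were tested by exact permutation. The procedure was tested on simulated data in which the planted changes were larger than that of any member. Changes of the size seen in the members were not tested there. Other alternatives were pseudocounts, filters, scalings, a replicate block and leaving out each library. The factors of the other scalings were 0.998 to 1.002, so these could change little. Gene positions and lengths came from GENCODE 44, promoters from RefSeq. Named were AGRN, called members, PSMB5 to PSMB10, the activators, PSMF1, the extremes of each role group, up to 4 called genes per partner list with set regulators, and the 5 genes most like PSMB9. Members and lists were chosen with earlier results of these data known. Some genes of the partner lists are not reported here.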

Additional observations from a re-analysis of the deposited data

How the results depend on the processing

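The median log2 fold change of the members and the 3 subunit ratios kept their direction in every alternative run. For the ratios this was fixed in advance, because the genes in them did not overlap between groups. Higher members numbered 9 in the main test, 5 with no filter, 21 with DESeq2, 22 with the replicate block and 24 at an adjusted p below 0.05 (9.14, 6.11, 13, 15 and 18.3% of all genes tested), and 0 to 26 when each library was left out. Lower members numbered 2 in the main test, 4 with DESeq2, 5 with the replicate block and 5 at an adjusted p below 0.05 (9.07, 12.7, 15.4 and 18.5% of all genes tested), and 0 to 5 when each library was left out. Deviations of same-numbered libraries correlated at 0.53, 0.38 and -0.0018. SiAgrin 1 and siAgrin 2 correlated best with the siControl library of their own number, and siAgrin 3 with another number. Whether same-numbered libraries were handled together was not tested. Without single libraries the ratio changes ran from -0.54 to -0.32 (PSMB8 over PSMB5), -0.95 to -0.68 (PSMB9 over PSMB6) and -0.89 to -0.70 (PSMB10 over PSMB7). PSMA5 ran from -0.043 to 0.042 and PSMG2 from -0.0078 to 0.039, which crosses 0. The cause of these changes was not tested. Every member had at least 663 reads in each library, and 3 libraries a group limit the exact tests to p = 0.1.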

Other observations

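Among all genes tested, the levels of PTK7 (Pearson r 0.998), AC120057.2 (0.997), LRRK1 (0.996), GPRC5C (0.996) and GABARAP (0.996) were most like those of PSMB9 over the 6 libraries. These libraries fall into the siAgrin and siControl groups and share their scaling, so the values are a description. CDH5, a cadherin of endothelial junctions, had 1.62, 2.25 and 1.43 CPM in siAgrin cells, against 20.1, 26.4 and 24.2 CPM in siControl cells. Of the other endothelial markers TEK was at most 0.0437 CPM in any library, and PECAM1, VWF and KDR were not among the genes listed.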
